A study of Mus musculus with 6 samples.

Results

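The clearance of plasma triglyceride was described in these livers through 9 genes, *Angptl4*, *Angptl6*, *Angptl8*, *Lpl*, *Lipc*, *Lipg*, *Lmf1*, *Gpihbp1* and *Vldlr*. They were chosen by name as angiopoietin-like proteins, triglyceride lipases and partners of these lipases, and all 9 had a row among the 56691 Ensembl genes of the liver RNA-seq table. Liver mRNA was sequenced from 3 KPF dams (replicates 1, 2 and 3) and from 3 WPF dams (replicates 2, 3 and 4). In the KPF dams the ChREBP gene was knocked out in hepatocytes (h*Chrebp*-KO, made with Alb-Cre, a Cre recombinase driven by the albumin promoter). The labels call the WPF genotype WT, while the study calls these dams *Chrebp* flox/flox, animals with the floxed alleles and no Cre. All 6 dams were pregnant females given HFrD, a high-fructose diet, throughout pregnancy, so no group without fructose or without pregnancy is compared here. The age of the dams was not given in the sources used here.

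Lipoprotein lipase (LPL) hydrolyses the triglyceride of chylomicrons and VLDL on the capillary wall, where GPIHBP1 holds it, and ANGPTL4 and ANGPTL8 are among the proteins that restrain it. The adult liver makes little LPL, but it is a main source of ANGPTL8 and hepatic lipase, the product of *Lipc*. Lipases must be folded with the help of LMF1 before they leave the cell, and ChREBP is a transcription factor that carbohydrate activates.

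The libraries held between 10694496 and 14496630 counted reads, with the smaller totals all in KPF. *Mlxipl*, the gene of ChREBP, reached 179, 700 and 849 CPM (counts scaled to a library of common size after TMM normalization) in KPF replicates 1, 2 and 3, against 961, 1260 and 879 CPM in WPF replicates 2, 3 and 4. The groups did not overlap but KPF replicate 3 was close to WPF replicate 4. Its log2 fold change was -0.84 (SE 0.53, Benjamini-Hochberg adjusted p = 0.584 in edgeR's quasi-likelihood test). The paper names exon 2 as the knockout region. The reads were counted over the whole gene and not by exon, so these values do not measure the loss of exon 2. KPF replicate 2 stood apart from the other libraries. The summed FPKM (reads scaled by exonic length and by the counted reads of the library) of 7 striated muscle markers was 2802 in it and between 4.68 and 7.92 in the other 5 libraries, so calls of members and of the listed genes are given with and without it. The summed FPKM of 7 hepatocyte markers was between 34473 and 45288 in KPF and between 58740 and 75304 in WPF. All 7 hepatocyte markers were read in every library.

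Among the 9 genes, *Angptl8* and *Lipc* had the highest mean levels in this liver and *Lipg* was read only 2 to 16 times in a library. The means over the 6 libraries were 335 FPKM for *Angptl8*, 39.6 for *Lipc*, 13.2 for *Angptl4*, 8.16 for *Lpl*, 6.77 for *Angptl6*, 4.39 for *Lmf1*, 2.50 for *Gpihbp1*, 1.31 for *Vldlr* and 0.152 for *Lipg*. *Angptl8* was first, *Vldlr* eighth and *Lipg* ninth in every library, while the genes between them changed places. *Lpl* in particular ranged from the third to the seventh place. The FPKM ranges of *Angptl4*, *Lpl*, *Angptl6* and *Lmf1*, neighbours in this order, overlapped. *Lipc*, at 4.91 to 59.2 FPKM, ranged from place 2 to place 5, and its range overlapped theirs too.

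**Figure D1:**
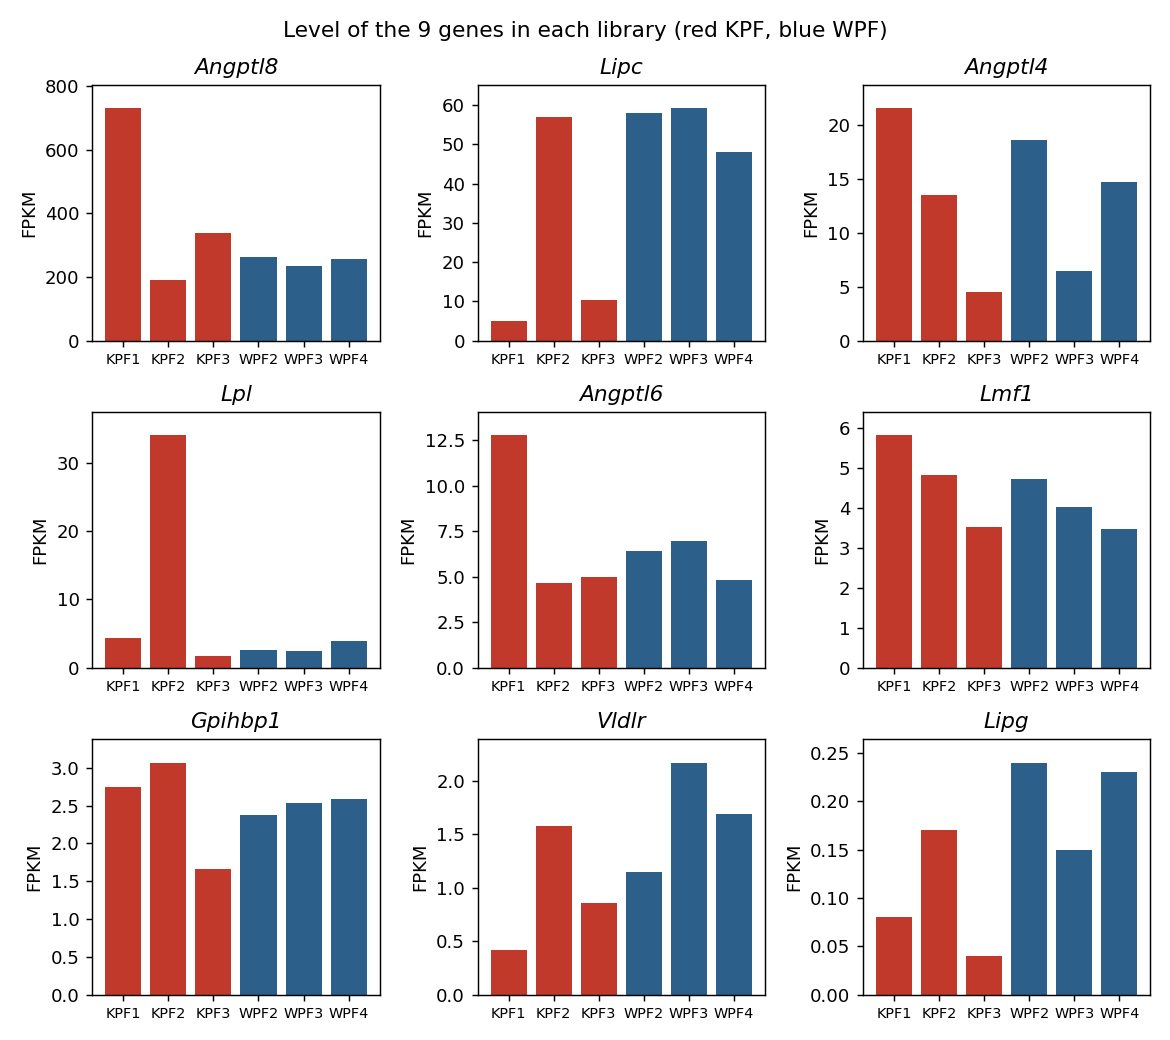
Level of each of the 9 genes in FPKM, with 1 bar per library (KPF in red, WPF in blue) and an axis from 0 for each gene. KPF replicate 2 lies far above every other library for *Lpl* (34.0 FPKM), and KPF replicates 1 and 3 lie far below the other libraries for *Lipc* (4.91 and 10.4 FPKM).

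A gene was called changed at an unadjusted p under 0.05 in edgeR's quasi-likelihood test and a change of at least 1.5-fold. Of the 9 genes, 8 passed the minimum mean of 1 FPKM and 1 was called, *Lpl*, which was higher in KPF. The share of called genes was 9.8% of all 10866 tested genes, with 5.83% called higher and 3.98% called lower, so 1 call among 8 is near the background. None of these 10866 genes reached an adjusted p under 0.05 in this edgeR fit (the smallest was 0.397), against 1175 at an unadjusted p under 0.05. DESeq2 gave 159 genes at an adjusted p under 0.05, and edgeR with no filter on low genes gave 286. The median log2 fold change of the 8 tested members was 0.20, beside 0.02 over all tested genes. None of the 9 genes was free of overlap between the groups, whereas 15.7% of the tested genes were and 8.15% had every KPF library below every WPF library.

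Without KPF replicate 2, 3 of the 8 tested members were called, beside 9.5% of all 10745 genes then tested. *Angptl8* was higher in KPF, where 5.06% of all genes were called higher, and *Lipc* and *Vldlr* were lower, where 4.44% were called lower. *Lpl* was not called in this comparison. Again no gene reached an adjusted p under 0.05 in edgeR.

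**Figure D2:**
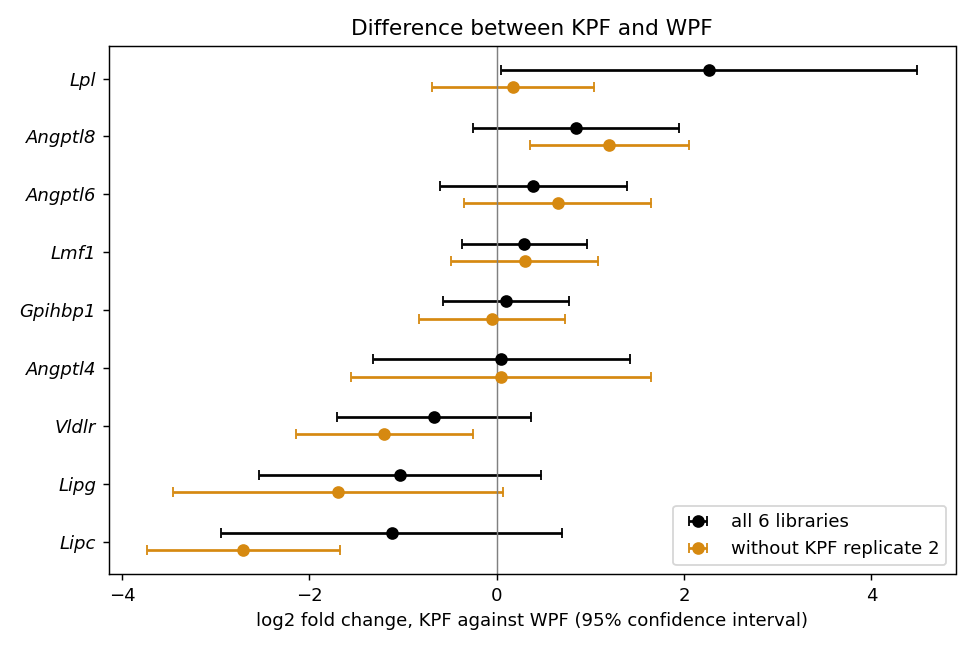
Log2 fold change of KPF against WPF with its 95% confidence interval for each gene, from all 6 libraries and without KPF replicate 2. The value of *Lpl* goes from 2.27 to 0.17 and that of *Lipc* from -1.12 to -2.70 when this library is left out.

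Of the lipases, *Lipc* was low in only some of the KPF dams. *Lipc* (ENSMUSG00000032207, chr9:70705410-70859508, minus strand, GRCm39) encodes hepatic lipase, which hydrolyses triglyceride and phospholipid of remnants and HDL. It had 10.8, 123 and 24.8 CPM in KPF replicates 1, 2 and 3, against 140, 117 and 87.9 CPM in WPF replicates 2, 3 and 4. KPF replicates 1 and 3 were below every WPF dam and KPF replicate 2 was inside the WPF range. In FPKM the highest KPF library was 11.6 times the lowest, whereas the WPF libraries differed by 1.23 times. The log2 fold change over all 6 libraries was -1.12 (SE 0.78, 95% confidence interval -2.94 to 0.70, adjusted p = 0.621 in edgeR's quasi-likelihood test), and it was not called.

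Without KPF replicate 2 the log2 fold change of *Lipc* was -2.70 (SE 0.44, 95% confidence interval -3.73 to -1.68), or 6.51-fold lower in KPF. That difference was called (edgeR's quasi-likelihood test, unadjusted p = 0.000400, adjusted p = 0.295). Without KPF replicate 1 the value was -0.64 and not called, so its size rested on which KPF dams were included. The exact two-sided permutation test gave p = 0.3 with all libraries and p = 0.1 without KPF replicate 2, and 0.1 is the smallest p that either design allows. The call of *Lipc* also differed between fits. With library totals in edgeR it was not called (-1.20, unadjusted p = 0.154), whereas limma on log2(FPKM + 1) called it with all 6 libraries at -1.83 (unadjusted p = 0.0409, adjusted p = 0.528) and edgeR with no filter on low genes called it at -1.19 (adjusted p = 0.466). Summed hepatocyte markers, of which *Alb* made up most, were lower in all 3 KPF libraries. By gene, with all libraries, 6 of the 7 markers had a negative log2 fold change and *Hnf4a* a positive one (0.22). The smallest falls were those of *Cps1* (-0.09) and *Serpina1c* (-0.12). Of these 7 markers 1 was called lower with all libraries, *Apoa2*, and 2 without KPF replicate 2, *Ttr* (-1.48) and *Ass1* (-1.03), with a list median of -0.67. Their part in the values of *Lipc* and *Vldlr* was not tested, and in bulk RNA fewer cells of a type and less RNA per cell cannot be told apart. Of 3 genes that overlap *Lipc*, the most read was *Gm32017*, on the opposite strand, with between 3 and 152 reads a library.

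The 250 bases upstream of a RefSeq start site of *Lipc* that is also the start of transcript Lipc-201 (chr9:70934809-70935058, minus strand, GRCm38.p6, an older build than that of the table) are shown because *Lipc* had the largest difference once KPF replicate 2 was left out. Capitals mark matches to AGGTCA, the half-site that nuclear receptors bind, and to CCAAT, on either strand.
Lipc: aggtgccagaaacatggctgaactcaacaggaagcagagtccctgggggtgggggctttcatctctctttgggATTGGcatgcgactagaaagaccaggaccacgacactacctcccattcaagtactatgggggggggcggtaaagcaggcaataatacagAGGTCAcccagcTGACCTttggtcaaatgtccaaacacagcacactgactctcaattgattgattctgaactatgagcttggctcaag
Read in the direction of transcription, the window held AGGTCA 88 bases upstream of the start, and its reverse complement 76 bases upstream. CCAAT stood as its reverse complement 177 bases upstream. Of 32817 RefSeq windows of the same length, 14% held AGGTCA and 33.8% held CCAAT on at least 1 strand. The E-box CACGTG (in 6.02% of windows), GTTAAT (6.44%), TATAAA (12.4%) and the longer carbohydrate response element (0.0975%), to which ChREBP is known to bind, were searched in the same way and had no match in this window. A second RefSeq window of *Lipc*, at the start of transcript Lipc-203, held 3 matches to CCAAT and none to AGGTCA.

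*Lpl* (ENSMUSG00000015568, chr8:69333143-69360100, plus strand, GRCm39), made mainly by adipocytes and muscle, was the member that met the call with all 6 libraries. It had 46.1, 358 and 20.3 CPM in KPF replicates 1, 2 and 3, against 30.2, 23.5 and 34.5 CPM in WPF replicates 2, 3 and 4. KPF replicate 2 was the single high library, and KPF replicate 3 was the lowest of all 6. The log2 fold change was 2.27 (SE 0.95, 95% confidence interval 0.05 to 4.49, edgeR's quasi-likelihood test, unadjusted p = 0.0462, adjusted p = 0.456). The groups overlapped, and the exact two-sided permutation test gave p = 0.4.

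Without KPF replicate 2 the log2 fold change of *Lpl* was 0.17 (SE 0.37, 95% confidence interval -0.69 to 1.03) and the call was lost. It was also lost, at values of 2.28, 2.13 and 2.39, when WPF replicate 2, 3 or 4 was left out. With all libraries the 7 striated muscle markers met the call as higher in KPF, but their high values came from KPF replicate 2 alone. *Ckm*, for example, had 2, 5845 and 1 reads in KPF replicates 1, 2 and 3. *Ckm*, *Acta1*, *Myh4* and *Actn3* passed the minimum level only through that high library, so their calls give no result about the group. Of the 3 markers that could be tested without KPF replicate 2 none was called (edgeR's quasi-likelihood test). Adipocyte markers were also at their highest in this library, apart from *Lep*, which had no read. The summed FPKM of all 6 was 12.7, 30.1 and 3.22 in KPF replicates 1, 2 and 3 and between 1.29 and 2.33 in WPF. *Adipoq*, which marks adipocytes, had 3, 14 and 0 reads in the KPF libraries and at most 3 in a WPF library, and *Lep* had 0 reads in all 6, which allows up to 3 reads a library by counting error alone. The part of muscle and of adipose RNA in the *Lpl* value of KPF replicate 2 was not tested.

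**Figure D3:**
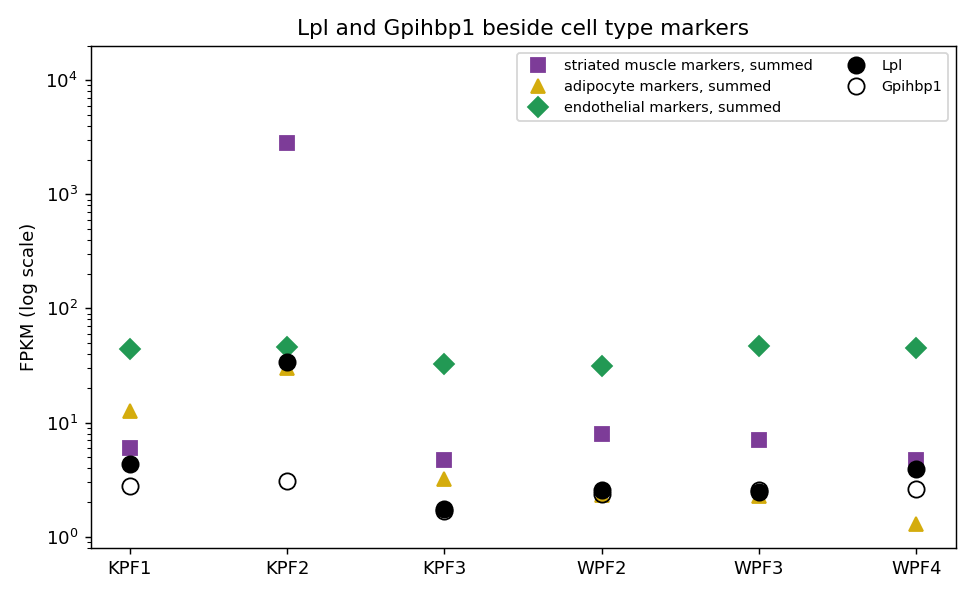
FPKM on a log axis in each of the 6 libraries for *Lpl* and *Gpihbp1* (circles) and for the summed striated muscle, adipocyte and endothelial markers. KPF replicate 2 has the highest *Lpl* (34.0 FPKM), muscle sum (2802 FPKM) and adipocyte sum (30.1 FPKM), while its endothelial sum (46.2 FPKM) lies within the range of the other libraries.

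Across the 6 libraries, the genes whose log2 CPM was most like that of *Lpl* were *Tnnt1* (a slow muscle troponin, Pearson r = 0.994), *Ak1* (adenylate kinase, 0.993) and *Slc25a11* (the mitochondrial 2-oxoglutarate carrier, 0.993). These 6 points share their libraries, and 248 genes reached an r of 0.9 or more with *Lpl*. *Tnnt1* was at 144 CPM in KPF replicate 2 and between 0.865 and 3.62 CPM in the others, so the likeness follows that library.

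Per length, *Lipc* exceeded *Lpl* in every library, by 1.14, 1.67 and 5.96 times in FPKM in KPF replicates 1, 2 and 3 and by 22.6, 24.3 and 12.4 times in WPF replicates 2, 3 and 4. The ratio was lower in every KPF dam than in any WPF dam. *Lipc* itself was low in KPF replicates 1 and 3, and *Lpl* was high in KPF replicate 2. The ratio was chosen after the values were seen and was given no test.

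*Lipg* (ENSMUSG00000053846, chr18:75072393-75094334, minus strand, GRCm39), which encodes endothelial lipase, an HDL phospholipase, had 4, 9 and 2 reads in KPF replicates 1, 2 and 3 and 15, 9 and 16 reads in WPF replicates 2, 3 and 4. KPF replicates 1 and 3 were the lowest, but with so few reads the mean of 0.152 FPKM was below the minimum. Its log2 fold change was -1.03 (SE 0.65) with no adjusted p (exact two-sided permutation test, p = 0.2), and without KPF replicate 2 it was -1.70 (SE 0.75, unadjusted p = 0.0570 in edgeR).

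Of the angiopoietin-like proteins, *Angptl8* was the most abundant and had the largest log2 fold change of the 3 members of that family. *Angptl8* (ENSMUSG00000047822, chr9:21746806-21748643, plus strand, GRCm39), a feeding-induced protein that takes part in the restraint of LPL, had 643, 166 and 325 CPM in KPF replicates 1, 2 and 3, against 254, 188 and 188 CPM in WPF replicates 2, 3 and 4. KPF replicates 1 and 3 were above every WPF dam and KPF replicate 2 was the lowest of all 6. In FPKM the WPF libraries lay within 1.11 times of each other and the KPF libraries within 3.84 times. Its log2 fold change was 0.85 (SE 0.47, 95% confidence interval -0.25 to 1.95, adjusted p = 0.547 in edgeR's quasi-likelihood test), and it was not called.

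Without KPF replicate 2 the log2 fold change of *Angptl8* was 1.20 (SE 0.36, 95% confidence interval 0.35 to 2.05), or 2.30-fold higher in KPF, and it was called (unadjusted p = 0.0121, adjusted p = 0.430, edgeR's quasi-likelihood test). The exact two-sided permutation test gave p = 0.1, the smallest possible. Without KPF replicate 1 the value was 0.23 and not called, so its size rested on which KPF dams were included. *Angptl8* lies inside *Dock6* on the opposite strand. *Dock6* had between 853 and 1305 reads a library, and whether the counting used strand is not given in the sources used here.

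The upstream 250 bases of *Angptl8* (chr9:21835260-21835509, plus strand, GRCm38.p6), ending at the start of transcript Angptl8-201, are shown as the promoter of the member with the highest level. None of the 6 motifs had a match, so no base is in capitals.
Angptl8: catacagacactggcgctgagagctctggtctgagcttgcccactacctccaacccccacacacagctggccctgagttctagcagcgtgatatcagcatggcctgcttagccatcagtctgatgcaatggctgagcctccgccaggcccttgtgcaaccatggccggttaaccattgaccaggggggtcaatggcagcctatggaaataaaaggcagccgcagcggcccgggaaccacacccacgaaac

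The genes whose log2 CPM was most like that of *Angptl8* over the 6 libraries were *Dnajb11* (an endoplasmic reticulum co-chaperone, Pearson r = 0.993), *Rnf121* (0.992) and *Faap20* (0.990), and 149 genes reached 0.9. *Dnajb11* was at 198, 52.0 and 104 CPM in KPF replicates 1, 2 and 3 and between 59.0 and 70.9 CPM in WPF, the same order of KPF dams as for *Angptl8*. For *Lipc* they were *Aldh2* (mitochondrial aldehyde dehydrogenase, r = 0.993), *Haao* (an enzyme of tryptophan breakdown, 0.992) and *Zfp945* (0.987), with 183 genes at 0.9 or more. *Haao* was at 165, 318 and 211 CPM in KPF and between 294 and 366 CPM in WPF. The genes likened to *Angptl8* and *Lipc* were chosen after their values were seen, and each r is a description over 6 libraries that all these genes share.

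*Angptl4* (ENSMUSG00000002289, chr17:33992724-34000804, minus strand, GRCm39), an inhibitor of LPL that fasting and PPARs induce, varied as much within the groups as between them. It had 77.7, 48.0 and 17.8 CPM in KPF replicates 1, 2 and 3, against 73.8, 20.9 and 44.2 CPM in WPF replicates 2, 3 and 4. Each group held a high, a middle and a low library. Between the groups the log2 fold change was 0.05 (SE 0.59, adjusted p = 0.979 in edgeR's quasi-likelihood test), and its 95% confidence interval of -1.32 to 1.42 spans both signs. The sign turned when libraries were scaled by their totals alone (-0.0047) and without KPF replicate 1 (-0.49) or WPF replicate 3 (-0.30).

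*Angptl6* (ENSMUSG00000038742, chr9:20785104-20791023, minus strand, GRCm39), a circulating liver protein of the same family, was at 20.6, 7.43 and 8.74 CPM in KPF replicates 1, 2 and 3. WPF replicates 2, 3 and 4 had 11.4, 10.1 and 6.50 CPM. KPF replicate 1 alone was high, and the other libraries overlapped. The log2 fold change was 0.39 (SE 0.43, 95% confidence interval -0.61 to 1.39, adjusted p = 0.756 in edgeR's quasi-likelihood test) and became -0.20 without KPF replicate 1. *A230050P20Rik*, on the opposite strand, overlaps *Angptl6* and had between 2385 and 8316 reads a library, against 84 to 216 for *Angptl6*, so reads of this pair cannot be told apart if strand was not used.

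*Angptl2*, another gene of the angiopoietin-like family, passed the minimum level with a log2 fold change of -0.14 and was not called, and *Angptl1* and *Angptl7* were below it. Of 6 other genes of the pancreatic lipase family, *Pla1a*, a phospholipase, passed the minimum level (log2 fold change 0.12, not called, edgeR's quasi-likelihood test).

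The lipase partners *Lmf1* and *Gpihbp1* were not called, and in FPKM their highest library was 1.68 and 1.85 times the lowest. *Lmf1* (ENSMUSG00000002279, chr17:25798059-25881800, plus strand, GRCm39), needed for the folding of LPL and hepatic lipase, had 80.4, 65.8 and 52.9 CPM in KPF replicates 1, 2 and 3, against 71.9, 50.5 and 39.9 CPM in WPF replicates 2, 3 and 4. For *Lmf1* the log2 fold change was 0.30 (SE 0.29, 95% confidence interval -0.37 to 0.96, adjusted p = 0.724 in edgeR's quasi-likelihood test). *Gpihbp1* (ENSMUSG00000022579, chr15:75468477-75471330, plus strand, GRCm39), which carries LPL to the capillary lumen, had 7.14, 7.87 and 4.71 CPM in KPF replicates 1, 2 and 3, against 6.83, 5.97 and 5.62 CPM in WPF replicates 2, 3 and 4. Its log2 fold change was 0.10 (SE 0.29, 95% confidence interval -0.57 to 0.77, adjusted p = 0.913 in edgeR's quasi-likelihood test), with a sign that turned to -0.0084 with library totals. *Gpihbp1* is made by endothelial cells, whose 9 markers summed to between 32.8 and 46.2 FPKM in KPF and between 31.2 and 47.3 FPKM in WPF, with 1 of 9, *Pecam1*, called higher in KPF.

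*Vldlr* (ENSMUSG00000024924, chr19:27193884-27231631, plus strand, GRCm39), a receptor of triglyceride-rich lipoproteins that is low in healthy liver, had 4.29, 16.0 and 9.61 CPM in KPF replicates 1, 2 and 3, against 13.0, 20.2 and 14.5 CPM in WPF replicates 2, 3 and 4. KPF replicates 1 and 3 were below every WPF dam, and KPF replicate 2 was inside the WPF range, as for *Lipc*. Over all 6 libraries the log2 fold change was -0.67 (SE 0.44, 95% confidence interval -1.70 to 0.37, adjusted p = 0.606 in edgeR's quasi-likelihood test). Without KPF replicate 2 it was -1.20 (SE 0.40, 95% confidence interval -2.14 to -0.25), or 2.30-fold lower in KPF, and was called (unadjusted p = 0.0197, adjusted p = 0.443, edgeR's quasi-likelihood test). The exact two-sided permutation test then gave p = 0.1. Without KPF replicate 1 the log2 fold change of *Vldlr* was -0.31 and not called.

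The 250 bases before the start of transcripts Vldlr-205 and Vldlr-208 (chr19:27216770-27217019, plus strand, GRCm38.p6) are shown beside that of *Lipc* because both genes were called lower without KPF replicate 2. Capitals mark CCAAT, here as its reverse complement, 78 bases upstream.
Vldlr: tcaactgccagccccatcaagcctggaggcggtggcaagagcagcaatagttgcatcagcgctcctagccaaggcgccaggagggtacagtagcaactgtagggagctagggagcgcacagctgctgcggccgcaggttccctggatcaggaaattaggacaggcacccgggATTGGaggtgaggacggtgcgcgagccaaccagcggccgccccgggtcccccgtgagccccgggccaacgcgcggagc
A second RefSeq window of *Vldlr* held GTTAAT as its reverse complement 102 bases upstream of its start. RefSeq windows were matched for 5 of the 9 genes, *Angptl6*, *Angptl8*, *Lipc*, *Lmf1* and *Vldlr*, and those of *Angptl6* and *Lmf1* held none of the 6 motifs.

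The dams did not order the 9 genes alike. KPF replicate 1 was the highest of the 6 libraries in CPM for *Angptl4*, *Angptl6*, *Angptl8* and *Lmf1* and the lowest for *Lipc* and *Vldlr*, in a library that was the highest for 22.6% and the lowest for 23.3% of all tested genes. KPF replicate 2 was the highest for *Lpl* and *Gpihbp1* and the lowest for *Angptl8*. KPF replicate 3 was the lowest for *Angptl4*, *Lpl*, *Lipg* and *Gpihbp1*. Over all tested genes, KPF replicate 2 was the highest for 19.3% and the lowest for 19.9%, and KPF replicate 3 for 13.6% and 13.2%.

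The wider machinery of triglyceride clearance is given by list, beside the 9.8% of all tested genes that were called. Of 9 apolipoproteins that act on lipases or on remnant uptake, 1 was called, *Apoa5*, an activator of LPL-mediated clearance, which had 367, 416 and 247 CPM in KPF replicates 1, 2 and 3, against 246, 186 and 165 CPM in WPF replicates 2, 3 and 4. Its groups did not overlap, though KPF replicate 3 and WPF replicate 2 were nearly equal. For *Apoa5* the log2 fold change was 0.79 (SE 0.30, unadjusted p = 0.0307, adjusted p = 0.430, edgeR's quasi-likelihood test), and the call was lost without KPF replicate 1 (0.74) or 2 (0.62) and without WPF replicate 3 (0.74) or 4 (0.66). It was also lost with library totals (0.70) and in limma on log2(FPKM + 1) (0.64) and log2(FPKM + 0.1) (0.65). In total the *Apoa5* call was lost in 8 of the 15 alternatives, and the lowest value was 0.58. Of the 9 apolipoproteins, 5 had a positive and 4 a negative value, with a median of 0.01. *Apoa4*, an apolipoprotein of the gut and the fatty liver, had 859, 313 and 178 CPM in KPF replicates 1, 2 and 3, against 1691, 1707 and 128 CPM in WPF replicates 2, 3 and 4 (log2 fold change -1.39, not called), and without WPF replicate 4 it was called at -1.93. With all 6 libraries *Apoa4* was also called in edgeR with no filter (-1.46). It was not called in 12 of the 15 alternatives, and its values over all 15 ran from -2.85 to -1.01. *Apoe*, the ligand for remnant uptake, had a log2 fold change of -0.54 and was not called. It was called lower with library totals (-0.64) and in both limma fits (-0.67). Without KPF replicate 2, 0 of the 9 apolipoproteins were called.

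Of 9 tested lipoprotein receptors and binding partners, 8 had a negative log2 fold change and 1 a positive one (median -0.37, beside 0.02 over all tested genes), and 1 was called. *Lsr*, the lipolysis-stimulated lipoprotein receptor, had 107, 105 and 104 CPM in KPF replicates 1, 2 and 3, against 221, 169 and 114 CPM in WPF replicates 2, 3 and 4. Its log2 fold change was -0.67 (SE 0.29, unadjusted p = 0.0486, adjusted p = 0.461, edgeR's quasi-likelihood test). The call was lost without KPF replicate 1 (-0.68), 2 (-0.67) or 3 (-0.66) and without WPF replicate 2 (-0.43) or 3 (-0.67). *Lrpap1*, a chaperone of the LDL receptor family, had -0.37 and *Scarb1*, the HDL receptor, -0.47, both not called. *Scarb1* was called in 3 of the 15 alternatives, among them without KPF replicate 1 (-0.62) and without WPF replicate 4 (-0.63). When KPF replicate 2 was left out, 8 of the 9 receptors again had a negative value (median -0.21) and 0 were called.

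Of 9 genes for lipase folding, degradation and cleavage, 6 had a positive and 3 a negative log2 fold change (median 0.19), and 1 was called. *Pcsk6*, a proprotein convertase, had 7.81, 16.5 and 14.3 CPM in KPF replicates 1, 2 and 3, against 20.5, 23.2 and 37.3 CPM in WPF replicates 2, 3 and 4, with no overlap. Its log2 fold change was -1.07 (SE 0.35, unadjusted p = 0.0159, adjusted p = 0.430, edgeR's quasi-likelihood test), and without WPF replicate 4 it was -0.77 and not called. The *Pcsk6* call was lost in 2 of the 15 alternatives, and the values over all 15 ran from -1.29 to -0.51. *Syvn1*, the ubiquitin ligase that with SEL1L degrades misfolded proteins of the endoplasmic reticulum, had 470, 100 and 175 CPM in KPF replicates 1, 2 and 3, against 110, 123 and 81.8 CPM in WPF replicates 2, 3 and 4 (log2 fold change 1.24, unadjusted p = 0.0525 in edgeR). *Syvn1* was not called in that fit, but with all 6 libraries it was called in DESeq2 (1.25) and in edgeR with no filter (1.17). In 11 of the 15 alternatives *Syvn1* was not called. *Lmf2*, a relative of *Lmf1*, had 0.42 and was not called. When KPF replicate 2 was left out, 3 of the 9 were called, beside 9.5% of all genes then tested, with *Syvn1* (1.62) and the chaperone *Calr* (1.29, named after its value was seen) higher and *Pcsk6* (-1.29) lower.

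Of 13 tested regulators known to act on these genes, 6 had a positive and 7 a negative log2 fold change (median -0.01) and none was called. *Srebf1*, the lipogenic transcription factor, had 21.4, 116 and 82.5 CPM in KPF replicates 1, 2 and 3, against 174, 144 and 132 CPM in WPF replicates 2, 3 and 4, with no overlap (log2 fold change -1.03, unadjusted p = 0.0929 in edgeR), and was called at -1.54 without KPF replicate 2. With all 6 libraries *Srebf1* was also called in DESeq2 (-1.03), in limma with pseudocounts of 1 (-1.34) and 0.1 (-1.45), and in edgeR with no filter (-1.10). In 10 of the 15 alternatives it was not called. *Nr1h3*, the gene of LXRα, had 0.48 and *Creb3l3*, a liver regulator of plasma triglyceride, 0.74. *Nr1h3* was called without KPF replicate 3 (0.66) and *Creb3l3* without WPF replicate 4 (1.09). *Creb3l3* was called in 2 of the 15 alternatives.

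**Figure D4:**
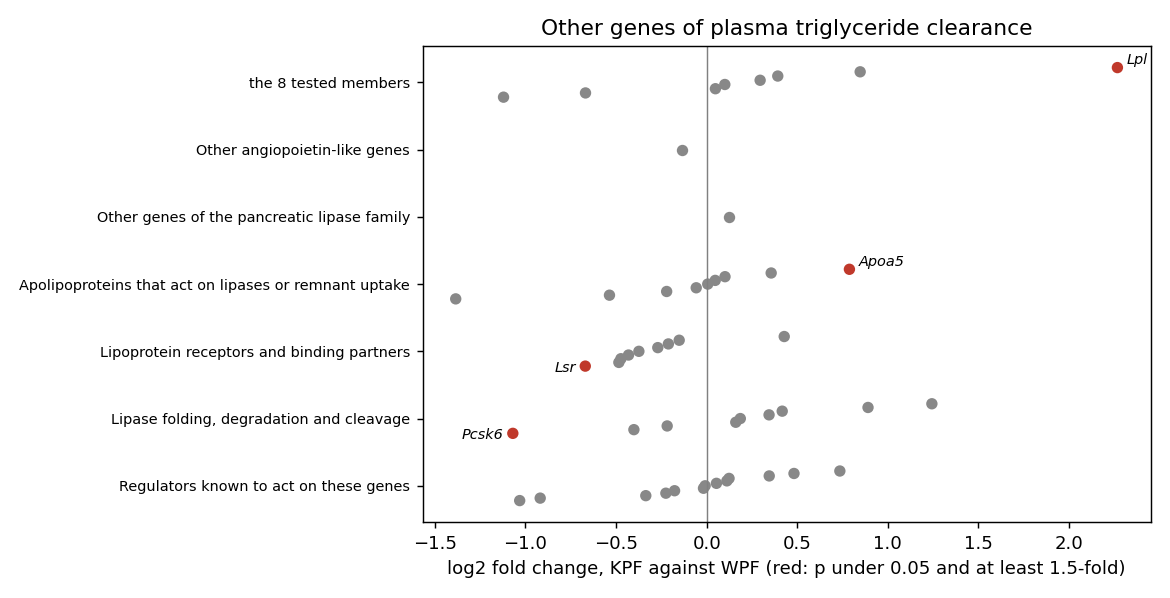
Log2 fold change of KPF against WPF for the tested genes of the members and of the pathway lists (cell type markers are not plotted), with 1 point per gene and called genes in red (points are spread vertically only for legibility). Of the genes plotted, *Lpl* (2.27) lies farthest to the right, and the receptors lie mostly to the left of 0 (8 of 9).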

How the data were processed

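Poly(A) RNA of 6 dam livers was sequenced. The submitters' processing notes name cutadapt 1.9.1, HISAT2 2.2.1, HTSeq 0.6.1, DESeq2 and the build GRCm39. For each of 56691 Ensembl genes the authors deposited the read count of each library and its FPKM, the count scaled by exonic length and library total, so FPKM holds no composition correction. Recomputed FPKM equalled the deposited values within 0.01 for 100% of values. Symbols were matched for 52073 IDs.

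Counts were normalized by TMM and tested with edgeR 4.0.16 (glmQLFit, R 4.3.3) over the 10866 genes that averaged 1 FPKM or more across libraries. Calls needed an unadjusted p under 0.05 and at least 1.5-fold, with Benjamini-Hochberg adjusted p beside it. *Lipg*, below the minimum, was fitted without an adjusted p. Alternatives used DESeq2 1.42.0, limma 3.58.1 on log2(FPKM + 1) and log2(FPKM + 0.1), other normalizations and filters, each library left out, and a replicate block. Genes that are no members were run under them after the data were seen. The tests were tried on simulated data.

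The 9 members and all lists were chosen with earlier results of these data known. Named are all members, *Mlxipl*, up to 3 genes of smallest p in each list, and the 3 tested genes most correlated with a called member; *Calr* and genes likened to *Angptl8* and *Lipc* were named after their values were seen. Marker lists covered hepatocytes, adipocytes, striated muscle, endothelial cells, Kupffer cells (8 markers, 0 called, and *Marco* higher without KPF replicate 2) and stellate cells (8 markers, 4 called higher, with *Des*, *Col1a1* and *Col3a1* of smallest p, and 5 without KPF replicate 2, *Dcn* among them). *Des* had 53.8, 486 and 10.1 CPM in KPF replicates 1, 2 and 3, with its peak in the library of the high muscle sum, and between 7.32 and 10.5 CPM in WPF. *Lrat* was the 1 stellate marker with a negative log2 fold change (-0.35, not called). Of the 2 tested adipocyte markers, *Cfd* and *Fabp4*, both were called higher, and *Cfd* alone without KPF replicate 2. *Cfd* had 44, 195 and 13 reads in KPF replicates 1, 2 and 3 and at most 2 reads in a WPF library. It passed the minimum level through the KPF libraries alone, so its selection for the test favoured a call as higher. Promoter windows come from RefSeq on GRCm38.p6 and were not joined to the coordinates of the table. No pair of libraries in a group was alike within sampling noise (chi-square per gene 24.9 or more). The p-values measure the spread between these dams. The SE of an edgeR log2 fold change was its absolute value divided by the square root of the quasi-likelihood F statistic. Intervals of the log2 fold change are at 95% and were built from this SE. 1 listed gene is not reported here.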

Additional observations from a re-analysis of the deposited data

How the results depend on the processing

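With 3 dams a group, no member's call held under every alternative, and *Lipg*, with 2 to 16 reads a library, was too shallow for a call. *Lipc*, *Vldlr*, *Angptl8* and *Lpl* kept their sign under all 15 alternatives, with log2 fold changes of -2.70 to -0.64, -1.20 to -0.31, 0.087 to 1.20 and 0.17 to 2.78. The call of *Lpl* was lost in 8 of the 15. Against 633 genes called higher and 432 lower in KPF, none past an adjusted p under 0.05 and 1 member called, library totals gave 370 and 728, limma on log2(FPKM + 1) gave 236 higher, limma on log2(FPKM + 0.1) gave 277 and 689, a minimum mean of 5 FPKM gave 255 and 202 with 0 of 5 members called, and no filter gave 1576 and 910 with 286 past the adjusted p and 2 members, *Lipc* and *Lpl*. DESeq2 gave 159 past the adjusted p. Leaving out 1 library at a time gave 330 to 922 called higher, 245 to 712 lower, 0 to 5 past the adjusted p and 0 to 3 members. With library totals the tested genes had a median log2 fold change of -0.12 in place of 0.02, and the share of called genes that were higher was 33.7% in place of 59.4% (30.6% and 28.7% with limma). The sign turned for *Angptl4* with library totals (-0.0047), limma (-0.11 and -0.13 with pseudocounts of 1 and 0.1), no filter (-0.024) and without 1 library (-0.49 to 0.55), for *Gpihbp1* with library totals (-0.0084), limma (-0.027 and -0.049) and without 1 library (-0.053 to 0.29), for *Angptl6* without 1 library (-0.20 to 0.65), and for *Pla1a* with library totals (-0.00098), limma (-0.017 and -0.019) and without 1 library (-0.12 to 0.26). The cause was not tested.

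Replicate numbers 2 and 3 occur in both groups but belong to different dams, and the correlations of their deviations were 0.07 and -0.04. These correlations are too few to decide whether dams of the same number shared a batch. With the replicate block 0 members were called (*Lpl* 1.70), 679 genes were higher and 551 lower, and *Angptl4* (-0.43), *Angptl6* (-0.41), *Lmf1* (-0.030) and *Gpihbp1* (-0.064) turned sign.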
